A study of Mus musculus with 4 samples.

Results

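The genes described here are 10 genes of the brain endothelial barrier (Cldn5, Cdh5, Pecam1, Flt1, Slco1a4, Slco1c1, Abcb1a, Mfsd2a, Ly6c1 and Itm2a), taken by symbol from the 32285 genes of the count files. The data were Visium spatial transcriptomes, in which each spot of a slide captures polyadenylated RNA from a small region that can hold several cells. The samples were 4 brain sections, each 10 µm thick, cut from fresh frozen tissue of mice with 1 mutant copy of the tumor suppressor gene Nf1 (Nf1+/-). All 4 sections carried this genotype, there was no wild-type section, and the labels gave neither an age nor whether the sections came from 4 different mice. The comparisons below are therefore between kinds of spots within the sections. Their p-values measure only how such differences vary over these sections, with the spread pooled over the kinds of spots and partly shared across genes. Spots with at least 500 UMIs (unique molecular identifiers, each counting 1 captured molecule) were used, which left 1537, 2358, 2294 and 1431 spots in sections 1 to 4, with medians of 14922, 15296.5, 8862.5 and 12232 UMIs per spot. The numbers only name the sections.

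Endothelial cells of most brain vessels form a barrier by sealing the clefts between them with tight junctions, by keeping vesicle transport low and by carrying nutrients in and drugs out through transporters. Vessels of the choroid plexus differ: they are fenestrated and leaky, and the barrier there is the epithelium that makes cerebrospinal fluid. In the meninges, larger arteries and veins run among fibroblasts before they enter the tissue. Cldn5 is the main claudin of brain tight junctions, Cdh5 (VE-cadherin) holds endothelial adherens junctions together, Pecam1 (CD31) is an adhesion molecule of all endothelium, and Flt1 is a receptor for vascular endothelial growth factor. Of the transporters, Slco1a4 carries organic anions, Slco1c1 carries thyroid hormone and is known from brain endothelium and from choroid plexus epithelium, Abcb1a is the drug efflux pump P-glycoprotein, and Mfsd2a imports lysophospholipids that carry omega-3 fatty acids. Ly6c1 is a surface protein anchored in the membrane by a lipid and Itm2a is a small membrane protein, and both are widely used as markers of brain endothelium.

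In the mouse assembly GRCm38.p6 the 2 transporters Slco1c1 (chr6:141524354-141570177) and Slco1a4 (chr6:141805438-141856284) lie on 1 chromosome, 235260 bases apart, with the protein-coding genes Slco1b2 and Gm5724 between them. Cldn5 is a short gene at chr16:18776847-18778262. RefSeq promoter windows of 300 bases (250 before and 50 after an annotated start) were at hand for 8 of the 10 genes. The windows of Slco1c1 (chr6:141524104-141524403, plus strand), Slco1a4 (chr6:141856171-141856470, minus strand) and Cldn5 (chr16:18776597-18776896, plus strand) are shown because the 2 neighboring transporters behaved differently in the choroid plexus spots described below, while Cldn5 is the defining junction gene. They are written 5′ to 3′, and capitals mark GGAA, the core of the motif of ETS factors, or CTTTGA, a form of the motif of TCF/LEF factors, on either strand, where matches of the 2 motifs may overlap.
Slco1c1: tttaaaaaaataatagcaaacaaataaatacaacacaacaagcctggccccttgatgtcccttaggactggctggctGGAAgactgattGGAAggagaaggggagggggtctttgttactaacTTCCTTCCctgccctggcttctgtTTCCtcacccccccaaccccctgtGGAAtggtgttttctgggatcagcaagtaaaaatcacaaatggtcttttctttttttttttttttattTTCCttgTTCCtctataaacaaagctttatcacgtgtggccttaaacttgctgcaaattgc
Slco1a4: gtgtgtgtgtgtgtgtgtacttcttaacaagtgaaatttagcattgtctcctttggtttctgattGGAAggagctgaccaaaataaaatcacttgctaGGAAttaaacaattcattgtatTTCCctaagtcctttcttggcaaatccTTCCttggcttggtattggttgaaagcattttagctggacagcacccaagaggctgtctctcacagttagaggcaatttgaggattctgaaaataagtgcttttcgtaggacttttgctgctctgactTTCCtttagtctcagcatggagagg
Cldn5: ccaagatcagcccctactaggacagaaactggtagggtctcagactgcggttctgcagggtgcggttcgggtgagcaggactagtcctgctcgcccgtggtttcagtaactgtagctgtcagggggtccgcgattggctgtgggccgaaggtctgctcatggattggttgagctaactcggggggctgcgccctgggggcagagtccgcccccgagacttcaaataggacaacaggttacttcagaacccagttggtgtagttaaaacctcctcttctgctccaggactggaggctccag
The window of Slco1c1 held 8 matches of GGAA, that of Slco1a4 held 5 and that of Cldn5 held 0. At least 1 GGAA stood in 96.0% of all 32851 windows, with a median of 3, so its presence sets neither Slco1c1 nor Slco1a4 apart. Its absence from the Cldn5 window was the less common case, and 8 of the 9 windows of the 8 genes held it. CTTTGA stood in none of the 3 windows shown, in those of Abcb1a and Mfsd2a among the 8 genes, and in 16% of all windows. These matches describe letters only.

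Over all spots used, the 10 genes together gave 6601, 13016, 7312 and 5293 UMIs in sections 1 to 4, which is 281, 352, 332 and 275 UMIs per 1000000 (CPM), or 310 ± 38 (SD, n = 4). A UMI of at least 1 of them was found in 92.6%, 95.5%, 83.1% and 86.7% of the spots. In spots with at least 5000 UMIs, which leaves out 72, 143, 427 and 207 shallower spots, it was found in 94.1%, 97.3%, 89.3% and 90.8%, and in 72.4% ± 3.2 (SD, n = 4) once each of these deeper spots was thinned to 5000 UMIs. Because 1 UMI is counted at the 3′ end of each molecule, CPM values of different genes can be set side by side without a correction for gene length, within what capture efficiency allows.

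Ly6c1 was the most abundant, with 84.8, 106, 110 and 80.5 CPM in sections 1 to 4, and Itm2a followed with 61.9, 77.5, 70.0 and 60.1 CPM. On average Ly6c1 held 30.7% and Itm2a 21.7% of the UMIs of the 10 genes. Slco1c1 came next, at 35.4, 37.8, 38.8 and 34.9 CPM. Its highest section exceeded its lowest 1.11-fold, the narrowest spread of the 10. The next 4 genes were Mfsd2a (22.8 ± 6.8 CPM), Slco1a4 (22.8 ± 2.8), Cldn5 (21.6 ± 5.5) and Flt1 (18.4 ± 2.9; SD, n = 4 for each). Mfsd2a, Slco1a4 and Cldn5 each held its rank above the next in only 2 of the 4 sections, so the order of these 4 genes was not settled. Below them, and apart from one another in all 4 sections, were Abcb1a at 13.3 ± 1.9 CPM, Pecam1 at 7.0 ± 1.1 and Cdh5 at 4.56 ± 0.44. The junction genes Pecam1 and Cdh5 thus gave only 131 to 302 and 83 to 192 UMIs per section, and their values carry the widest counting error.

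Mfsd2a and Cldn5 varied most between sections and in different ways. Mfsd2a stood at 25.2, 31.3, 18.2 and 16.6 CPM, highest in section 2 and lowest in section 4. Cldn5 stood at 14.9, 21.4, 28.2 and 21.96 CPM, highest in section 3 and lowest in section 1. The coefficients of variation were 29.7% and 25.2%, against 4.52% and 4.50% from counting error alone. With 1 genotype and no other label, these differences between sections cannot be tied to a condition.

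**Figure D1:**
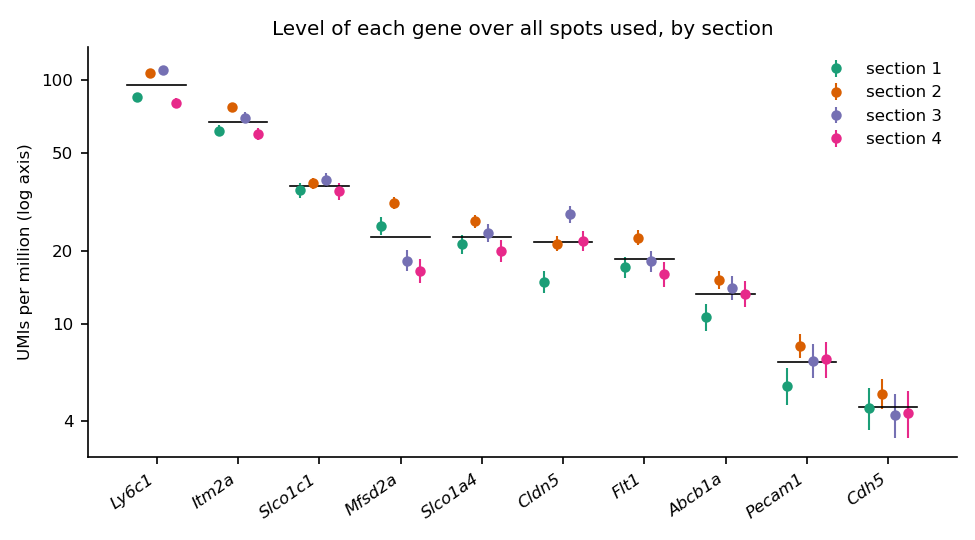
Level of each of the 10 genes over all spots used, in UMIs per 1000000 on a log axis, with 1 point per section, exact 95% Poisson intervals (counting error only) as bars and the mean of the 4 sections as a black line. Ly6c1 and Itm2a lie above the rest, Slco1c1 is tightly grouped, and Mfsd2a, Slco1a4, Cldn5 and Flt1 interleave.

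Spots were sorted by marker genes that do not include the 10. Choroid plexus spots had UMIs of at least 3 of 10 choroid plexus markers. Fibroblast-marker spots were those in the top 5% of a section by genes of meningeal and vascular fibroblasts that were not choroid plexus spots. Of the spots then left in a section, white-matter spots were the top 15% by myelin genes and gray-matter spots the lower 50%. The classes held 644 to 1118 gray-matter, 193 to 335 white-matter and 57 to 118 fibroblast-marker spots per section. Genes not used for sorting were then read as a check of the labels. Neuronal genes summed to 8112 ± 1177 CPM in gray-matter and 4652 ± 1264 CPM in white-matter spots. A second list of 6 fibroblast genes reached 80.8 to 247 CPM in fibroblast-marker spots, against 18.8 to 35.4 CPM in gray matter. Choroid plexus spots numbered 189 in section 1 and 76 in section 4, where Ttr, the transthyretin of choroid plexus epithelium, stood at 60246 and 83244 CPM. In spots of these sections with none of the markers Ttr stood at 3871 and 845 CPM. It was unevenly spread over the class of section 1, with only 9069 CPM in the 116 spots with 3 to 4 markers. Sections 2 and 3 had only 4 and 7 choroid plexus spots, under the minimum of 20 spots, and both sections were left out of the choroid plexus sums. The 4 spots of section 2 held 3 UMIs of Ttr in all, so the label did not hold there, whereas the 7 of section 3 held 626 (8740 CPM, against 29.2 CPM in gray matter) and 1 UMI of Slco1c1 (14.0 CPM, 95% interval 0.353 to 77.8). All 15 genes of a list of general endothelial markers had UMIs in the gray-matter and white-matter spots of every section.

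Between white and gray matter, per UMI captured, the barrier genes made up a slightly larger part of the RNA of white-matter spots. On average, though, a white-matter spot held fewer of their molecules, as it did of most genes. The sum of the 10 was 248, 330, 298 and 255 CPM in the gray-matter spots of sections 1 to 4 and 294, 382, 346 and 322 CPM in the white-matter spots, so it was higher in white matter in each section, 1.19 ± 0.05-fold (SD, n = 4). Counted per spot the order turned: 4.31, 6.37, 3.50 and 4.39 UMIs in gray-matter spots and 2.78, 3.06, 1.83 and 2.02 in white-matter spots, a ratio of 0.526 ± 0.083. The mean depth of white-matter spots was 0.443 ± 0.076 of that of gray-matter spots. The myelin score was observed minus expected UMIs over the square root of expected, which can fall lower in deeper spots. The gray-matter class can therefore favor deeper spots. Its median depth was 11079.5 to 18280 UMIs by section, against 8279 to 14097 in spots between the 2 classes in myelin genes. The part of this choice in the depth ratio and in values per spot was not tested. In spots, fewer endothelial cells and less RNA per cell cannot be told apart.

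Of the transporters, Slco1a4 stood at 18.3, 25.8, 21.5 and 17.7 CPM in gray matter and at 24.7, 30.2, 26.7 and 33.6 CPM in white matter, higher in each section. Ly6c1 stood at 74.3, 98.6, 94.8 and 74.8 CPM in gray matter and at 92.1, 121, 119 and 77.9 CPM in white matter. Both were higher per UMI with edgeR's quasi-likelihood test and Benjamini-Hochberg adjustment (Slco1a4, log2 fold change 0.50, SE 0.15, adjusted p = 0.0163; Ly6c1, 0.33, SE 0.09, adjusted p = 0.00798). On this scale Mfsd2a was the other gene called higher by edgeR (0.34, SE 0.12, adjusted p = 0.0471), and it missed the threshold when any 1 section was left out. Cldn5, by contrast, was at 14.5, 19.2, 25.5 and 23.1 CPM in gray matter and 14.3, 19.0, 24.99 and 21.3 CPM in white matter, a log2 fold change of 0.01 (SE 0.18) whose sign turned with the scaling.

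The other 7 genes filled the range between. Slco1c1 stood at 27.4, 37.1, 34.9 and 27.1 CPM in gray matter and at 31.8, 40.2, 48.8 and 48.4 CPM in white matter (log2 fold change 0.45, SE 0.17). Mfsd2a went from 22.3, 30.05, 17.4 and 16.1 CPM to 30.2, 36.9, 18.01 and 19.7 CPM, and Itm2a from 56.1, 70.9, 66.4 and 57.2 CPM to 60.3, 79.0, 70.9 and 73.8 CPM (0.24, SE 0.11). These 3 were higher in white matter in 4 of 4 sections per UMI, with the ranges of the 2 classes overlapping. How many of all genes were higher in every section was not counted. Flt1 was higher in 3 of 4, with 15.3, 23.3, 16.2 and 15.1 CPM in gray matter and 25.8, 24.95, 13.4 and 20.5 CPM in white matter (0.33, SE 0.16). Pecam1 (0.29, SE 0.26), Abcb1a (0.07, SE 0.20) and Cdh5 (0.19, SE 0.29) had only 6 to 23, 14 to 40 and 5 to 19 UMIs per section in white matter, and the last 2 were higher in only 2 of 4 sections.

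In all, 3 of 10 genes were higher and 0 lower per UMI, where 14.8% of all 12463 genes tested were higher and 11% lower. No gene of the 10 was lower at an unadjusted p under 0.05 either (0). DESeq2 called 2 higher and 0 lower and lost Mfsd2a (adjusted p = 0.120). The median log2 fold change was 0.31, against 0.01 over all genes. The calls were lost in some fits without 1 section, although Ly6c1 and Slco1a4 were higher in 4 of 4 sections. Ly6c1 was lost without section 2 or 3 and Slco1a4 without section 3 or 4, of the fits without 1 section Slco1c1 was called in the one without section 1, and the count was 3, 1, 0 and 1 without sections 1, 2, 3 and 4. Per spot, edgeR called 10 of 10 lower, from -1.27 for Cldn5 to -0.74 for Slco1a4, but so were 89.2% of all genes, with a median of -1.26 over all genes and -0.97 over the 10. Per endothelial UMI, which scales each sum by 15 general endothelial genes, 0 of 10 were higher (2 at an unadjusted p) and 0 lower, with 10.0% and 10.2% of all genes called. With Cd34 and Egfl7 left out of those 15, a choice made after the data were seen, the counts were again 0 and 0 (0 at an unadjusted p in either direction), with 6.88% and 35.7% of all genes called.

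Other genes of the barrier were then read. On the per-UMI scale 1 of 6 tight junction genes reported was higher in white matter, the scaffold protein Tjp1 (log2 fold change 0.45), and per spot it was at -0.82. Of 10 other barrier transporters tested, Slc2a1, the glucose transporter of brain endothelium (0.50), and Slc16a1, which carries lactate and ketone bodies (1.01), were higher per UMI, with per-spot values of -0.75 and -0.24, and the other 8 were not called. White-matter spots were chosen by myelin genes and can hold several cells. Which cells carried the Slc16a1 UMIs was not tested, so its rise is not read here as endothelial. None of 12 tested genes of Wnt signaling and barrier control was called. Of 14 general endothelial genes tested, Cd34 was lower (-0.80) and the other 13 were not called. Plvap, the diaphragm protein of fenestrated and leaky endothelium, was lower in white matter on the per-UMI scale (-0.45) and per spot alike (-1.74). It stood at 33.5 to 51.6 CPM over all spots used and was not higher in choroid plexus spots. Its level is therefore not read here as a measure of fenestrated vessels. Genes of other cells moved too: 6 of 8 astrocyte and 7 of 8 microglia markers were higher per UMI, while per spot 6 and 7 of them were lower, and their part in the result was not tested.

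In sections 1 and 4 Slco1c1 was the one gene of the 10 that stood out in choroid plexus spots. It rose from 27.4 and 27.1 CPM in gray-matter spots to 75.8 and 196 CPM in choroid plexus spots, carried by 253 and 116 UMIs, and there it was level with or above Ly6c1 (75.5 and 65.8 CPM). The log2 fold change was 2.10 (SE 0.21, adjusted p = 4.06e-07, edgeR), and it stayed above the threshold per spot (1.59), per endothelial UMI (2.14) and without any 1 section, at 2.83 without section 1 and 1.52 without section 4, where the lone remaining choroid plexus sum was assumed to vary like the other classes. It was 0.93 when 2 markers sufficed and 3.19 when at least 5 were asked for. In section 1, 30.5% of the Slco1c1 UMIs lay in choroid plexus spots, which held 14.2% of all UMIs, and in section 4 the shares were 17.2% and 3.08%. The level of Slco1c1 over all spots of these sections, 35.4 and 34.9 CPM, was nonetheless no higher than the 37.8 and 38.8 CPM of sections 2 and 3.

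The other 9 genes were not called in either direction. So 1 of 10 was higher, where 9.36% of all genes were, and 0 were lower (0 at an unadjusted p, 0 with DESeq2), where 4.32% of all genes were. The neighboring transporter Slco1a4 had 18.3 and 17.7 CPM in gray-matter and 23.7 and 27.0 CPM in choroid plexus spots (log2 fold change 0.35, SE 0.22). Ly6c1 (-0.02, SE 0.13), Itm2a (-0.03, SE 0.16) and Mfsd2a (0.03, SE 0.19) lay near 0, with signs that turned with scaling or section. Abcb1a stood at 10.5 and 13.3 CPM in gray-matter and 7.8 and 6.7 CPM in choroid plexus spots (-0.46, SE 0.32), from 26 and 4 UMIs, and was called lower only when at least 5 markers were asked for (-1.69). The median over the 10 was 0.00, as over all genes. Per spot all genes had a median of -0.47. On the other scales Slco1c1 was again the 1 gene called, where 4.57% of all genes were higher and 12.8% lower per spot, 8.56% higher and 2.15% lower per endothelial UMI, and 6.09% higher and 18.4% lower with Cd34 and Egfl7 left out of the endothelial genes.

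The level of Slco1c1 was also read by how many choroid plexus markers a spot held. In section 1 it stood at 27.5 CPM in the 617 spots with no marker, 29.5 with 1 to 2, 29.1 with 3 to 4, 76.0 with 5 to 6 and 216 CPM in the 37 spots with 7 or more. In section 4 the same steps gave 29.2, 31.4, 76.7, 195 and 523 CPM, the last from 67 UMIs in 15 spots. The 116 spots of section 1 with 3 to 4 markers were thus close in level to spots with none, and the choroid plexus class of section 1 holds spots at both levels. Over the same steps Slco1a4 went from 21.5 to 31.1 CPM in section 1 and from 19.0 to 39.1 in section 4. Ly6c1 went from 88.9 to 58.0 and from 83.5 to 70.3, and Cldn5 from 15.8 to 5.66 and from 22.5 to 15.6. The last values rest on 22 and 5 UMIs for Slco1a4 and on 4 and 2 for Cldn5. Ttr reached 228894 and 268317 CPM in the spots with 7 or more markers, and its part in the other levels was not tested. This grading was chosen after the data were seen and carries no test.

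**Figure D2:**
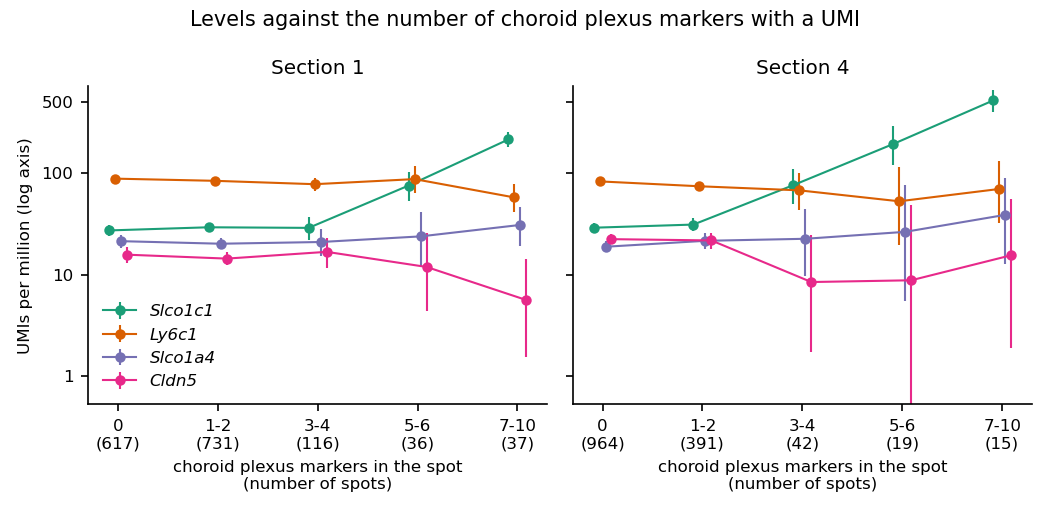
Levels of Slco1c1, Ly6c1, Slco1a4 and Cldn5 in UMIs per 1000000 (log axis) against the number of 10 choroid plexus markers with a UMI in the spot, in sections 1 and 4, with the number of spots in brackets and exact 95% Poisson intervals as bars. Slco1c1 climbs to 216 and 523 CPM. Slco1a4 ends less far above its start, at 31.1 and 39.1 CPM from 22 and 5 UMIs, and Ly6c1 and Cldn5 end below theirs.

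Genes of the same pathways gave a mixed picture in choroid plexus spots. Of 6 tight junction genes reported 2 were higher, Ocln (2.28), the occludin of epithelial and endothelial junctions, and F11r (1.80), a junctional adhesion molecule of both tissues, and these 2 were also called per spot. Of 10 transporters 2 were higher, Abcc4 (1.06) and Slc2a1 (0.50), and 0 were per spot. Of the genes of Wnt signaling and barrier control, Fzd4, a Wnt receptor of barrier endothelium, rose by 2.09, and which cells of these spots carried it was not tested. Only Fzd4 is given singly here, without a count of calls for its list. The 13 genes of that list summed to 377 and 430 CPM in the choroid plexus spots of sections 1 and 4. In the gray-matter spots of the same sections they summed to 346 and 306 CPM. Plvap, a marker of the fenestrated vessels of this tissue, had 53.7 and 43.0 CPM in gray-matter and 47.3 and 38.8 CPM in choroid plexus spots (-0.13), with a sign that turned without section 1. In spots of sections 1 and 4 with 7 or more markers it had 31.1 and 39.1 CPM (22 and 5 UMIs). Spots with no marker had 46.6 and 41.1 CPM. The general endothelial genes Kdr (1.34, adjusted p = 0.0444, edgeR) and Cd34 (-1.53) moved in opposite directions and 12 others were not called. Beside these results stand 6 of 6 ependyma markers that were higher, with a median of 4.16, and 4 of 10 fibroblast markers, with a median of 1.67. Of the myelin genes, for which gray-matter spots were chosen low, 10 of 10 were higher (median 1.54), and 6 of 10 neuron genes were lower (median -0.70). Their part was not tested. Reads of near copies can be assigned to the wrong gene, so the paralogs were counted. Slco1a5, a paralog of Slco1a4, gave 12 and 6 UMIs in the choroid plexus spots of sections 1 and 4, out of 14 and 10 in all. Ly6c2 gave 11 UMIs over all 4 sections, Abcb1b gave 133, Slco1b2 gave 12 and Slco1a1 gave 0. Ly6a, from the same gene family as Ly6c1, was abundant, with 5647 UMIs against 9898 of Ly6c1.

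Fibroblasts of the brain lie in the meninges and around larger vessels, and spot positions were not used here. Of the 4 classes, spots rich in fibroblast genes held the highest mean level of the barrier genes per UMI and per spot. The 10 genes summed to 601, 689, 683 and 432 CPM in sections 1 to 4, 2.12 ± 0.32 times the gray-matter level (SD, n = 4), although these spots were shallower, with a mean depth of 0.615 ± 0.049 of gray matter. Per spot the ratio was 1.53, 1.35, 1.46 and 0.919, so section 4 fell below gray matter on that scale.

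The junction genes and Abcb1a rose most per UMI. Cldn5 stood at 30.3, 71.2, 77.8 and 37.6 CPM, each above the highest gray-matter section, for a log2 fold change of 1.54 (SE 0.17, adjusted p = 1.2e-06, edgeR). Pecam1 reached 25.7, 21.7, 20.9 and 13.2 CPM, against 4.9, 7.5, 5.9 and 6.6 CPM in gray matter (1.78, SE 0.25), and Cdh5 reached 21.2, 15.6, 13.9 and 7.5 CPM, against 4.5, 4.5, 3.8 and 4.3 CPM (1.84, SE 0.28). Their counts here were small, 7 to 32 UMIs per section for Pecam1 and 4 to 23 for Cdh5. The efflux pump Abcb1a joined them with 34.8, 42.1, 39.5 and 18.8 CPM (1.59, SE 0.19), lowest in section 4. Ly6c1 (1.24), Itm2a (1.21), Flt1 (1.07) and Slco1a4 (1.01) also rose. Ly6c1 had 191, 202, 243 and 148 CPM and Itm2a 154, 165, 136 and 93.9 CPM in these spots, above every gray-matter section. Flt1 had 28.8, 40.7, 43.0 and 26.3 CPM and Slco1a4 54.5, 44.8, 35.99 and 26.3 CPM, likewise above all 4 gray-matter values. How many of all genes lay above every gray-matter section was not counted. Section 4 was the lowest for Ly6c1, Itm2a, Flt1 and Slco1a4. The fibroblast genes used for sorting were lowest there too, at 395 CPM against 544 to 771 CPM in the other sections.

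Mfsd2a and Slco1c1 had the smallest fold changes. Mfsd2a had 34.8, 41.4, 18.6 and 16.9 CPM, against 22.3, 30.05, 17.4 and 16.1 CPM in gray matter, and its log2 fold change of 0.45 (SE 0.15, adjusted p = 0.0425, edgeR) was lost without section 1, 2 or 3. Slco1c1 had 25.7, 44.8, 54.6 and 43.2 CPM, against 27.4, 37.1, 34.9 and 27.1 CPM (0.46, SE 0.21, adjusted p = 0.141, edgeR). Its log2 ratio was -0.05 in section 1, from 17 UMIs, and 0.28 to 0.70 in the other sections. Without section 1, where Mfsd2a was lost, 9 of 10 genes were called higher, so Slco1c1 was among them (1493 of all 12724 genes tested in that fit were higher). In all 9 of 10 genes were higher per UMI, where 12.8% of all genes were, and 0 were lower (0 at an unadjusted p, 0 with DESeq2), where 4.96% were. DESeq2 called 8 higher and lost Mfsd2a (adjusted p = 0.0946). The median was 1.23, against 0.00 over all genes. Per spot 4 of 10 were higher by edgeR, Cdh5 (1.07), Pecam1 (1.03), Abcb1a (0.79) and Cldn5 (0.70), where 4.16% of all genes were higher and 65.3% lower, around a median of -0.76.

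Scaled by the 15 general endothelial genes, the 10 split. Cdh5 (0.77), Pecam1 (0.74), Abcb1a (0.52) and Cldn5 (0.47) were higher and Mfsd2a (-0.64) and Slco1c1 (-0.60) lower, with 3.19% of all genes higher and 82.0% lower around a median of -1.05. The higher calls depended on the scale. With Cd34 and Egfl7 left out of the 15, a choice made after the data were seen, 0 of 10 were higher (0 at an unadjusted p; 2.13% of all genes) and 3 were lower (89.1% of all genes), Mfsd2a (-1.02), Slco1c1 (-0.97) and Slco1a4 (-0.43). Mfsd2a and Slco1c1 were lower on both scales, as were most genes.

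**Figure D3:**
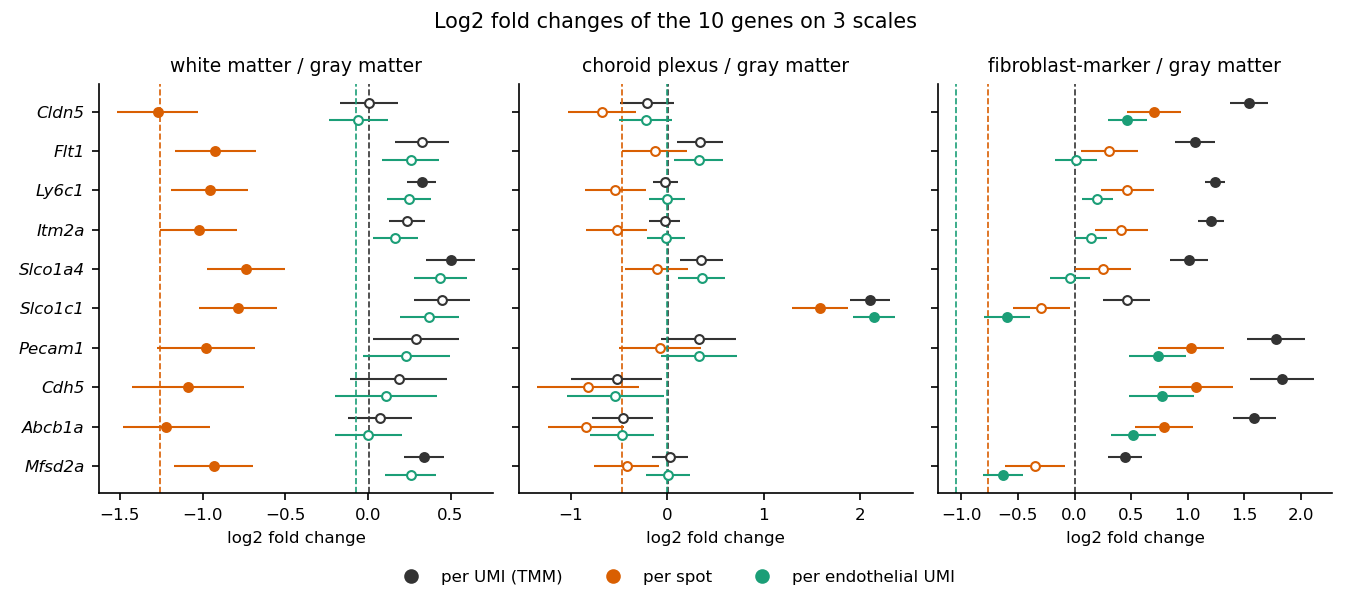
Log2 fold changes of the 10 genes with their standard errors, for white-matter, choroid plexus and fibroblast-marker spots against gray-matter spots, per UMI (black), per spot (orange) and per endothelial UMI (green). Filled points passed an adjusted p of 0.05 in edgeR and dashed lines give the median over all genes on each scale. White-matter values change sign between the per-UMI and per-spot scales, Slco1c1 stands apart in choroid plexus on all 3, and Mfsd2a and Slco1c1 turn negative in fibroblast-marker spots per spot and per endothelial UMI.

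Of the further endothelial lists, higher per UMI were 11 of 14 general endothelial genes, with Ptprb at 2.10 and Ramp2 at 1.48, and 5 of 6 tight junction genes reported, with Lsr, a protein of junctions where 3 cells meet, at 2.47. Of 10 other barrier transporters 5 were higher, with Slc2a1 at 1.20. Of 12 genes of Wnt signaling and barrier control 6 were higher, among them the Wnt7 coreceptors Adgra2 (2.42) and Reck (1.93) and the Wnt target Apcdd1 (1.58). None of these lists had a member called lower per UMI. Plvap was at -0.29 per UMI and not called, and per spot it was lower (-1.06). Per endothelial UMI the counts of higher and lower calls in these lists were 3 and 2 of 14, 1 and 1 of 6, 0 and 6 of 10, and 3 and 3 of 12. On that scale 3.19% of all genes were higher and 82.0% lower. The general endothelial genes also set this scale, so their summed level on it was fixed in advance. Cells of vessel walls, blood and glia moved as well. Smooth muscle genes rose, with Myh11 at 4.53, Tagln at 4.40 and Acta2 at 4.37, and 9 of 11 mural markers were higher, summing to 415 to 845 CPM against 104 to 164 CPM in gray matter with all 11 detected. All 4 hemoglobin genes were higher, with 39.5 to 182 CPM against 3.48 to 27.7 CPM. All 8 astrocyte and all 8 microglia markers were higher too per UMI, against 3 and 0 per spot. Of the myelin genes, for which gray-matter spots were chosen low, 10 of 10 were higher per UMI (median 1.20), and 4 of 10 neuron genes were lower (median -0.35). Their part in the result was not tested.

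**Figure D4:**
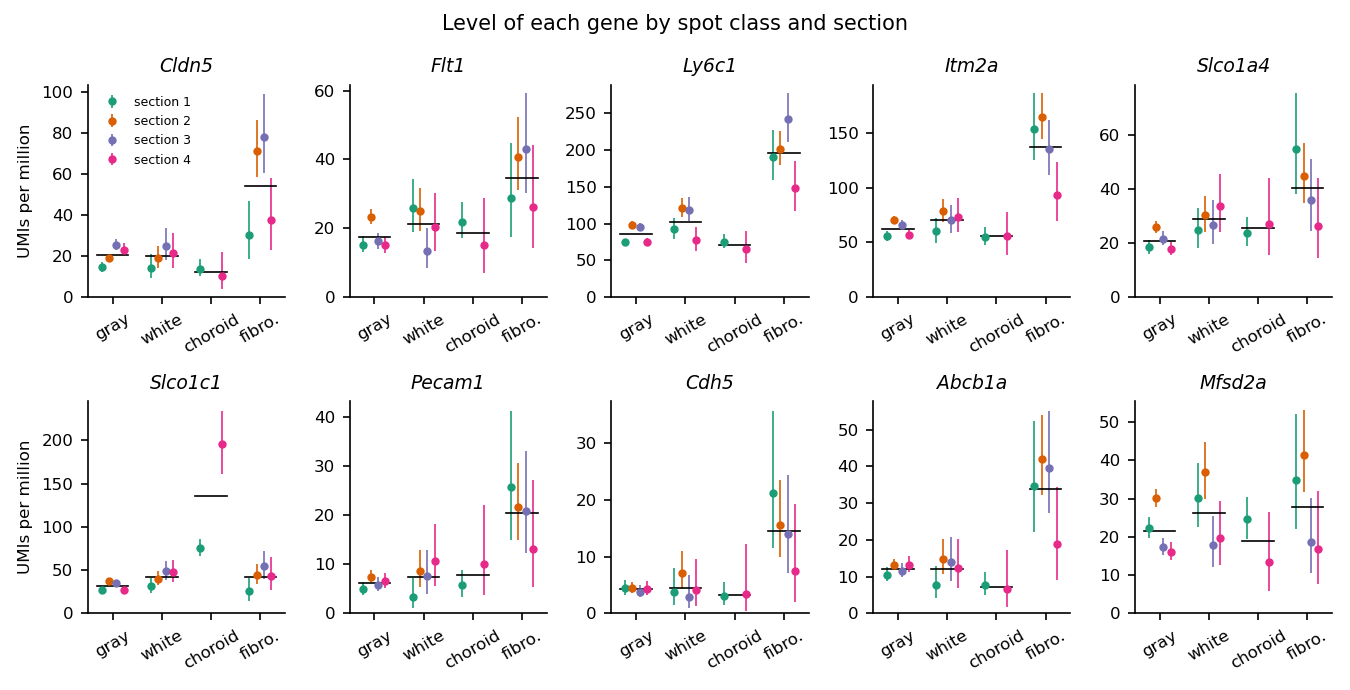
Level of each of the 10 genes by spot class, in UMIs per 1000000 from 0, with 1 point per section, exact 95% Poisson intervals as bars and the mean over sections as a black line. Choroid plexus is shown for sections 1 and 4. Most genes peak in fibroblast-marker spots and Slco1c1 peaks in choroid plexus spots. Section 4 is the lowest section of fibroblast-marker spots for 8 of the 10 genes, a count not set against all genes. It is also the lowest there for the summed fibroblast genes used for sorting.

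Set against each other per UMI, choroid plexus and fibroblast-marker spots differed in most of the 10 genes. Lower in choroid plexus spots were Cdh5 (-2.36), Abcb1a (-2.05), Cldn5 (-1.75), Pecam1 (-1.45), Ly6c1 (-1.26) and Itm2a (-1.23), which is 6 of 10 where 2.74% of all genes were lower. Slco1c1 alone was higher (1.64, SE 0.26, adjusted p = 0.000349, edgeR), 1 of 10 where 2.53% of all genes were, and it was not called when 2 choroid plexus markers sufficed (0.45, adjusted p = 0.387, edgeR). This comparison shares its spots with the 2 before it. Its lower calls came to 4 without section 1 and to 2, Ly6c1 and Abcb1a, with only the 2 classes in the fit. Per spot 4 were lower (1.04% of all genes) and 1 higher (3.46%). Per endothelial UMI they came to 3 (0.939% of all genes), while Mfsd2a joined Slco1c1 on the higher side (78.3% of all genes, around a median of 1.03). Without Cd34 and Egfl7 in that scale 2 were lower (0.883%) and 2 higher (80.7%).

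Within a section, each gene was compared with the sum of the 10 over spots by Pearson correlation of depth-scaled counts, for 9087 genes, and the mean over the 4 sections was taken. All points of a section share 1 library, and no p is given. The highest was Ly6a (mean r 0.37, 0.28 to 0.44 by section), a surface protein from the same gene family as Ly6c1 (reads assigned to the wrong one of the pair were not tested for). Next came Slc2a1 (0.35) and Apoe (0.30), a lipid carrier of astrocytes. Klf2 (0.29), a flow-induced endothelial factor, Pltp (0.27), Igfbp7 (0.26), Vtn (0.26), a pericyte gene in brain, Ifitm3 (0.26), Id1 (0.26) and Hspb1 (0.25) completed the 10, against a median of -0.01 over all genes. Only 5 of these stayed in the top 10 when choroid plexus and fibroblast-marker spots were left out. Among the genes themselves, Ly6c1 went most closely with the sum of the other 9 (0.34) and Mfsd2a least (0.062). Mfsd2a had 2468 UMIs in all, more than Pecam1 (727 UMIs, r 0.147) and Cdh5 (474 UMIs, r 0.110). Slco1a4, with 2379 UMIs, was at 0.218. At so few UMIs per spot a weak correlation alone is no finding, and the reason for this order was not tested.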

How the data were processed

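The authors processed the sequencing reads with Space Ranger 1.3.1 (genome build mm10, per the submitters' processing notes) and deposited UMI counts of every gene in every spot, not normalized. Symbols came from the deposited feature tables. Totals were 19261710 to 37002379 UMIs per section. No 2 sections agreed within sampling noise (chi-square over its degrees of freedom, 13.7 to 51.8), and pairs shared 427 to 1989 spot barcodes, which come from a common set. The members and all gene lists were chosen with earlier results of these data known.

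Genes named were the 10, the genes of the marker lists, 6 paralogs and the 10 genes most like their sum. Some members of the marker lists are not reported here. A spot's list score was observed minus expected UMIs over the square root of expected. Counts were summed per section and spot class (at least 20 spots, 14 sums) and fitted with edgeR 4.0.16 in R 4.3.3 (TMM, filterByExpr, section as a block, quasi-likelihood test, 7 residual degrees of freedom, Benjamini-Hochberg over 12463 genes). Classes of 1 section share tissue, which pairs them; gray-matter and white-matter deviations from the class means correlated at 0.33 to 0.41. Standard errors are the log2 fold change over the square root of F. DESeq2 1.42.0 was an alternative. In simulated white-matter counts with 200 of 12463 genes changed by a log2 fold change of 1, 164 were called, with 10 unchanged genes and 0 in the wrong direction. Recovery was weaker in the same simulation of choroid plexus counts (130 called, with 16 unchanged genes) and of fibroblast-marker counts (148, with 13). The simulated sections differed only in depth, and the change was larger than any white-matter value of the 10 genes (0.01 to 0.50). Recovery at those sizes was not simulated. Intervals cover counting error only.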

Additional observations from a re-analysis of the deposited data

Results flagged for a closer look

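Of 33 sets of 4 section values examined (levels of the 10 genes and of their sum, and their log2 ratios of white-matter and of fibroblast-marker to gray-matter spots), 2 had 1 section far from the other 3 by Dixon's ratio at its 95% critical value, and chance flags about 1 in 20 such sets. The log2 ratio of Ly6c1 in white-matter to gray-matter spots was 0.065 in section 4 and 0.30 to 0.33 in the other 3. The log2 ratio of Abcb1a in fibroblast-marker to gray-matter spots was 0.57 in section 4, from 10 UMIs, and 1.67 to 1.78 in the other 3. Both concern section 4, and each ratio stayed above 0 in all 4 sections. The fibroblast-marker spots of section 4 also had the lowest sum of fibroblast genes (395 CPM, against 544 to 771 CPM), and its part was not tested.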

How the results depend on the processing

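Depth limits Pecam1 and Cdh5 most, and choroid plexus values rest on 2 sections. Among the alternative values of the 10 genes' fold changes, 558 kept direction and call, 66 lost and 11 gained the call and 55 changed sign; for other genes named, 393 kept both, 42 lost the call and 7 changed sign. The cause was not tested. With all deposited spots or a minimum of 1 spot per sum, all 8 counts of calls stayed within 1.5 times.

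Per spot, higher calls in white matter came to 0 and lower to 10, at -1.27 (Cldn5), -0.92 (Flt1), -0.96 (Ly6c1), -1.02 (Itm2a), -0.74 (Slco1a4), -0.79 (Slco1c1), -0.98 (Pecam1), -1.09 (Cdh5), -1.22 (Abcb1a) and -0.93 (Mfsd2a), with Slc16a1 at -0.24, Slc2a1 at -0.75, Tjp1 at -0.82 and Ly6a at -0.87. Per spot in choroid plexus, Flt1 was at -0.13, Slco1a4 at -0.11, Pecam1 at -0.077 and Mfsd2a at -0.42. In fibroblast-marker spots higher calls came to 4, with Slco1c1 at -0.29 and Mfsd2a at -0.35.

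Per endothelial UMI, higher calls came to 0 in white matter and 4 in fibroblast-marker spots, with 2 lower. Against fibroblast-marker spots, choroid plexus calls came to 3 lower and 2 higher. Values were -0.059 for Cldn5 in white matter, -0.040 (Slco1a4), -0.60 (Slco1c1) and -0.64 (Mfsd2a) in fibroblast-marker spots, and 0.31 (Flt1), 0.40 (Slco1a4) and 0.64 (Mfsd2a) between choroid plexus and fibroblast-marker spots. Without Cd34 and Egfl7 in that scale, an alternative added after the data were seen, higher calls came to 0 in white matter and 0 in fibroblast-marker spots, with 3 lower there and 2 lower and 2 higher between choroid plexus and fibroblast-marker spots. Values were -0.30 (Cldn5), -0.076 (Itm2a), -0.011 (Pecam1), -0.12 (Cdh5) and -0.23 (Abcb1a) in white matter, -0.31 (Mfsd2a) in choroid plexus, -0.37 (Flt1), -0.18 (Ly6c1), -0.24 (Itm2a), -0.43 (Slco1a4), -0.97 (Slco1c1), -1.02 (Mfsd2a) and -0.25 (Slc2a1) in fibroblast-marker spots, and 0.38 (Flt1), 0.46 (Slco1a4) and 0.71 (Mfsd2a) between choroid plexus and fibroblast-marker spots.

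Cldn5 in white matter was at -0.061 with total-UMI scaling, -0.0030 with DESeq2, -0.046 without the filter, -0.011 with all deposited spots, -0.011 with a minimum of 1 spot and -0.14 with the top 25% as white matter. In choroid plexus, Ly6c1 was at 0.041 with at least 5 markers, Itm2a at 0.11 with gray matter by neuron score, Mfsd2a at -0.013 without the filter and Plvap at 0.0042 without the replicate block. Without the replicate block 1 gene was higher in white matter; with gray matter by neuron score 5 were. With at least 5 markers 1 gene, Abcb1a, was lower in choroid plexus. Between those classes, 2 were lower with only the 2 classes in the fit and 0 higher with at least 2 markers.

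Leaving out 1 section at a time gave 0 to 3 higher calls in white matter, -0.022 to 0.023 for Cldn5, -0.20 to 0.30 for Cdh5 and -0.036 to 0.19 for Abcb1a. In choroid plexus it gave -0.96 to 0.024 for Cldn5, -0.066 to 0.073 for Itm2a, -0.16 to 0.067 for Mfsd2a and -0.16 to 0.015 for Plvap. The summed level was 363 CPM with mitochondrially encoded genes left out of the total. Of the 10 genes most like the sum, 5 were shared without choroid plexus and fibroblast-marker spots and 5 in gray-matter spots alone. The share of spots with a UMI was 72.4% among spots with at least 5000 UMIs, each thinned to 5000, with shallower spots left out.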

Other observations

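The 2448 spots in none of the 4 classes, intermediate in myelin genes, gave sums of the 10 genes of 289, 342, 350 and 275 CPM in sections 1 to 4 and 4.14, 4.89, 3.04 and 3.48 UMIs per spot.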
